A study of Mus musculus with 4 samples.

Results

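The TRIM family was examined in mouse leukemic cells through the 111 probe sets, of 45101 on the array, whose single gene symbol in the platform annotation begins with Trim and a digit. They stand for 58 genes of the 18193 genes with such probe sets. The study compared leukemic cells carrying the MLL-AF9 fusion gene, an oncogene of acute myeloid leukemia made from a histone methyltransferase gene and a gene of transcription elongation, after transplantation into C57BL/6 recipient mice and purification from their bone marrow. The Ezh2 KO group held 2 arrays of leukemic cells whose genotype entry names a knockout of Ezh2, and the WT group held 2 arrays of leukemic cells entered as wild type. Another entry of the labels gives the recipients of the Ezh2 KO group as repopulated with Ink4a-/-Arf-/- marrow cells and those of the WT group with wild-type marrow cells, and the labels do not resolve this. Each array received labelled RNA equivalent to 10000 cells. The labels do not say whether the arrays of a group stand for different mice or different leukemias. The p-values therefore weigh a difference only against the spread of these few samples, and that spread may be technical.

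TRIM proteins are ubiquitin ligases built from a RING finger, 1 or more B-boxes and a coiled coil, followed by a C-terminal domain that differs between subgroups and selects the substrate. Members with a PRY-SPRY domain include restriction factors and regulators of antiviral and NF-kappa-B signalling, several of them induced by interferon. Members with a PHD finger and a bromodomain act in the nucleus as transcriptional cofactors, and some of them read histone marks. Separately, Ezh2, the catalytic subunit of PRC2, writes a histone mark, methylation of histone H3 at lysine 27. A link between that mark and these members was not tested. In bulk RNA, fewer cells of a type and less RNA per cell cannot be told apart.

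The Ezh2 transcript read 4989 and 4991 intensity units on the Ezh2 KO arrays and 5216 and 5315 on the WT arrays, and its log2 change of -0.08 (SE 0.06) did not pass (limma adjusted p = 0.484). Where its probe set lies with respect to the deletion was not determined, and the value is no check of the labels. All 9 myeloid and leukemic markers examined lay above the filter intensity of 19.96 on the 4 arrays. Of these, 2 were higher in Ezh2 KO, Itgam with a log2 change of 0.74 (limma adjusted p = 0.000456) and Cd33 with 0.71 (adjusted p = 0.00041). Changes above 0 were seen in 7 of the 9. Over all genes tested, 5.55% were higher in Ezh2 KO, and the median log2 change was 0.0066. Summed markers of red cells stood at 183 and 185 in Ezh2 KO and 211 and 157 in WT, those of T cells at 247 and 103 in Ezh2 KO and 187 and 124 in WT, and those of B cells at 819 and 957 in Ezh2 KO and 824 and 806 in WT, most of it from Cd79b. The summed mast cell markers read 1359 and 1280 in Ezh2 KO, against 89.5 and 132 in WT, and this difference came from Cpa3 alone among 4 markers. The part of such cells in the results below was not tested.

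Of the 58 Trim genes, 46 had a probe set above the filter and were tested, each through its brightest probe set. Of these, 2 were higher and 2 were lower in Ezh2 KO at a limma adjusted p under 0.05. The changed share was 8.7% of the Trim genes, against 11.6% of the 13916 genes tested. The higher share over all genes was 5.55% and the lower share 6.01%. The genes that rose were Trim66 and Trim24, both of the PHD-bromodomain class, and those that fell were Trim30a and Trim14, both of the PRY-SPRY class and both on the list of interferon and antiviral members. With a prior variance that does not follow intensity, none of the 4 passed, with limma adjusted p-values from 0.0879 to 0.183, and neither did any of the other genes tested.

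**Figure D1:**
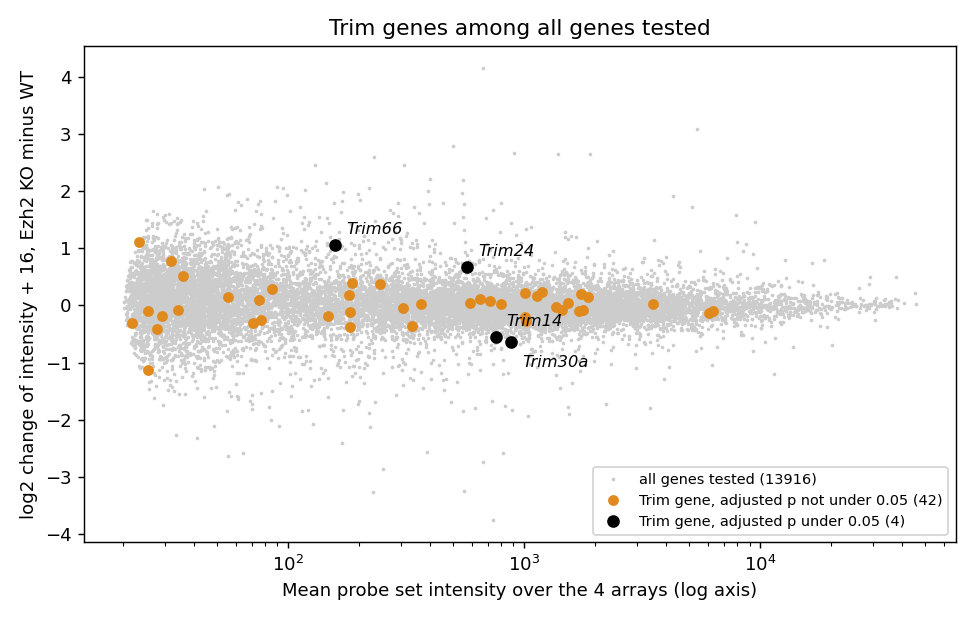
Log2 change (Ezh2 KO minus WT, of intensity plus 16) against mean probe set intensity for the 13916 genes tested (grey), the 42 Trim genes that did not pass (orange) and the 4 that did (black, named). Most Trim genes lie within the grey band at their intensity, and the dimmest ones spread most.

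The family as a whole was centred on no change. The median log2 change was -0.0025 over the 46 Trim genes and 0.0066 over all genes, with 23 Trim genes above and 23 below 0. The median absolute log2 change was 0.19 for the Trim genes and 0.20 for all genes. At an unadjusted p under 0.05 there were 11 Trim genes, or 23.9%, where all genes gave 24.9%. The arrays of the groups did not overlap for 24 of the 46 Trim genes, against 52.5% of all genes. These shares are close to the background, so the family did not stand apart by the number of its changes.

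The changes of the bright members were estimated more tightly than those of the dim ones. Of 22 tested Trim genes with a mean intensity above 500, 18 had an absolute log2 change under 0.25. Standard errors of the 22 lay between 0.06 and 0.11, and 3 of the 22 had passed the test. Of all genes tested at any intensity, 11.6% passed. The shares among all genes above 500 are not given here, so these counts do not set the Trim genes apart. Over those 22 genes the median absolute log2 difference was 0.076 between the Ezh2 KO arrays and 0.093 between the WT arrays, against 0.12 to 0.20 between arrays of different groups. Among the 42 genes that did not pass, 4 had an absolute log2 change of 0.5 or more, and the brightest of these averaged only 35.9 intensity units.

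The PHD-bromodomain class, the nuclear cofactors, had 4 tested members, of which 2 were higher and 0 lower in Ezh2 KO, where 5.55% of all genes were higher and 6.01% lower. The same 2 had an unadjusted limma p under 0.05, where all genes gave 24.9%. Trim66, the member known as TIF1-delta that lacks the RING finger and is described mainly from testis, read 236 and 203 intensity units on the Ezh2 KO arrays and 91.5 and 102 on the WT arrays. Both Ezh2 KO arrays lay above both WT arrays. The means were 219 ± 23.7 in Ezh2 KO and 96.7 ± 7.33 in WT (SD, n = 2 arrays, as for all means below), a log2 change of 1.06 (SE 0.21, 2.08-fold, limma adjusted p = 0.00997). A single probe set stands for Trim66.

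Trim24, or TIF1-alpha, a histone reader and nuclear receptor cofactor that also targets p53 for degradation, read 725 and 692 on the Ezh2 KO arrays and 462 and 418 on the WT arrays. The Ezh2 KO arrays were both higher, with means of 709 ± 23.2 in Ezh2 KO and 440 ± 31.1 in WT, a log2 change of 0.67 (SE 0.11, 1.59-fold, limma adjusted p = 0.00375). Its other probe sets moved the same way without passing. One read 199 and 175 in Ezh2 KO and 129 and 87.6 in WT (log2 change 0.73, adjusted p = 0.0951 in the fit over probe sets), and the other 64.6 and 55.6 in Ezh2 KO and 39.8 and 45.5 in WT (0.38, adjusted p = 0.574). Taking the mean of the 3 gave a log2 change of 0.59 that did not pass (adjusted p = 0.0813).

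Trim28, or KAP1, the corepressor recruited by KRAB zinc finger proteins to silence retroelements, read 5679 and 5889 in Ezh2 KO and 6187 and 6453 in WT. The Ezh2 KO arrays were both lower, but the log2 change of -0.13 (SE 0.06) did not pass (limma adjusted p = 0.238). Trim33, or TIF1-gamma, a ligase acting on SMAD signalling and needed in blood cell differentiation, read 1908 and 1991 in Ezh2 KO and 1800 and 1725 in WT (log2 change 0.14, SE 0.07, adjusted p = 0.249). Its further probe sets had log2 changes of 0.33 and 0.04, neither past the threshold.

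**Figure D2:**
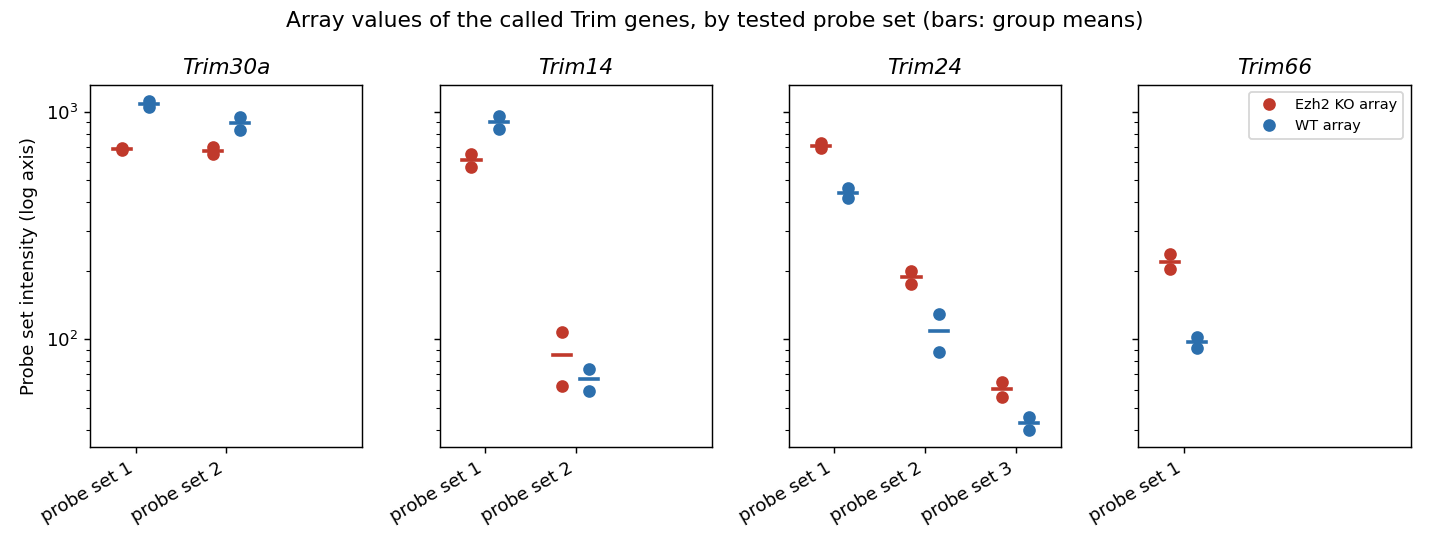
Intensity (log axis) on each array for every tested probe set of the 4 Trim genes that passed, Ezh2 KO in red at the left of each pair and WT in blue, with bars at group means. The arrays of the groups are separate at the brightest probe set of each gene, and the second probe set of Trim14 overlaps between groups. Levels of different probe sets are not comparable with each other.

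The interferon and antiviral members numbered 12, all tested, and 0 were higher and 2 lower, where 5.55% of all genes were higher and 6.01% lower. An unadjusted limma p under 0.05 was found for 24.9% of all genes and for 5 of these members. Their log2 changes ran from -0.64 to 0.24 with a median of -0.01, and 6 lay above and 6 below 0. Trim30a, an interferon-inducible protein that restrains NF-kappa-B signalling in mouse macrophages, read 677 and 694 intensity units on the Ezh2 KO arrays and 1048 and 1109 on the WT arrays. It averaged 685 ± 12.5 in Ezh2 KO and 1078 ± 43.1 in WT, a log2 change of -0.64 (SE 0.09, 1.56-fold lower, limma adjusted p = 0.00167). The second probe set of Trim30a read 696 and 653 in Ezh2 KO and 828 and 946 in WT, also lower on both Ezh2 KO arrays, and stood just outside the threshold (log2 change -0.38, adjusted p = 0.0561). A probe set annotated to both Trim30d and Trim30a, and so outside the rule for members, read 213 and 205 in Ezh2 KO against 319 and 257 in WT.

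Trim14, an adaptor at mitochondria in antiviral signalling that lacks a RING finger, read 569 and 654 on the Ezh2 KO arrays and 959 and 842 on the WT arrays. It averaged 612 ± 60.3 in Ezh2 KO and 900.3 ± 82.8 in WT, a log2 change of -0.55 (SE 0.11, 1.46-fold lower, limma adjusted p = 0.0114). Both WT arrays lay above both Ezh2 KO arrays, but the call rested on 1 probe set. A second, dimmer probe set of Trim14 read 62.1 and 108 in Ezh2 KO and 59.5 and 73.8 in WT, with overlapping groups (log2 change 0.26, adjusted p = 0.716), the mean of both did not pass (-0.15, adjusted p = 0.708), and without WT replicate 1 the change was -0.45 (adjusted p = 0.0929).

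Trim21, the cytosolic antibody receptor that is itself induced by interferon, read 928 and 914 in Ezh2 KO and 1163 and 1067 in WT. The groups were separate, but the log2 change of -0.27 (SE 0.09) missed the threshold (limma adjusted p = 0.0747). It passed after median centring of the arrays (-0.37, adjusted p = 0.0491). Its second probe set read 0.07 on the log2 scale. Trim30d, a close relative of Trim30a, read 279 and 304 in Ezh2 KO and 394 and 362 in WT (log2 change -0.36, SE 0.14, adjusted p = 0.131), while its dimmer probe set had 0.21.

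Trim25, the ligase that activates the RNA sensor RIG-I in human and mouse cells, read 1470 and 1348 in Ezh2 KO and 1576 and 1397 in WT, with overlapping groups (log2 change -0.08, adjusted p = 0.672). Trim26, encoded in the major histocompatibility region, read 134 and 138 in Ezh2 KO and 172 and 145 in WT (log2 change -0.19, adjusted p = 0.648), and its second probe set had 0.63 without passing. Trim56, a ligase acting in cytosolic DNA sensing, read 1057 and 1352 in Ezh2 KO and 1042 and 1092 in WT (log2 change 0.16, adjusted p = 0.433). The Ezh2 KO arrays of Trim56 differed from each other, and without Ezh2 KO replicate 1 its change was 0.34 and passed (adjusted p = 0.0457).

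A run of Trim genes lies side by side on chromosome 7, in the order Trim6, Trim34a, Trim5, Trim12a, Trim34b, Trim12c, Trim30b, Trim30c, Trim30a and Trim30d in the RefSeq annotation of GRCm38.p6. These relatives of the human retroviral restriction factor TRIM5 were tested at 7 of the 10 genes, and the probe sets may share transcripts of such close copies, so single levels are uncertain. The 5 tested genes from Trim6 to Trim12c had log2 changes above 0, and the 2 from Trim30a to Trim30d had changes below 0. This split of signs did not hold in every setting: Trim12c, Trim5 and Trim6 were below 0 without WT replicate 1 (-0.03, -0.02 and -0.06), Trim12c and Trim6 without Ezh2 KO replicate 2 (-0.02 and -0.17), and Trim12c and Trim34a after median centring (-0.05 and -0.02). Trim12a read 1305 and 1272 in Ezh2 KO and 1039 and 1140 in WT, with separate groups and a log2 change of 0.24 (SE 0.08) that did not pass (limma adjusted p = 0.0989). The neighbouring Trim5, Trim12c, Trim34a and Trim6 had log2 changes of 0.11, 0.05, 0.08 and 0.10, with adjusted p-values from 0.619 to 0.893. Trim30a was the only gene of the array to pass, and the differences between neighbours were not tested.

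**Figure D3:**
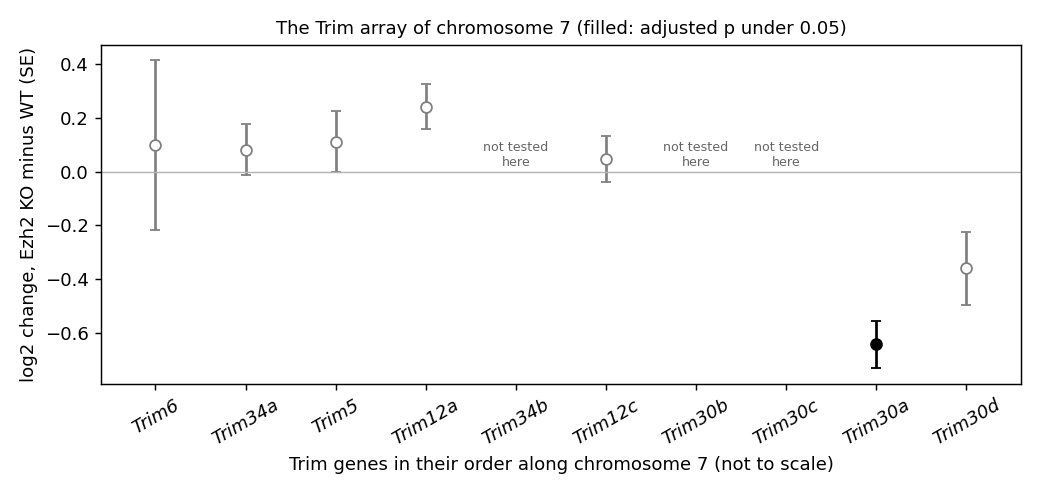
Log2 change (Ezh2 KO minus WT, with SE) of the Trim genes of chromosome 7 from Trim6 to Trim30d, in chromosomal order and not to scale. Trim30a (filled) at -0.64 passed the test, Trim30d follows at -0.36, and the 5 tested genes on the other side lie between 0.05 and 0.24, of which 4 turned below 0 under another setting.

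Promoters of several of these genes hold a motif linked to interferon. Members were chosen by symbol and not by this motif. Most of the Trim genes that hold it are on the list of interferon and antiviral members, and several are close copies on chromosome 7. Their share is therefore not a count of independent genes. The core of the interferon-stimulated response element, GAAA followed by any 2 bases and GAAA again, read on either strand, occurs within 250 bases before to 50 after an annotated start in 3.99% of 27025 genes in the RefSeq promoter table, and in 9 of the 47 Trim genes that the table holds, all 9 of them tested. Trim6 was in the table without a match. Of the 11 interferon and antiviral members in the table, 8 hold it, and the ninth gene is Trim2. The stretches below show the match in capitals with 10 bases on each side, on the strand of the gene, so that TTTC at the left edge of the capitals marks a match on the opposite strand. They are printed because Trim genes with log2 changes of either sign carry the motif within this window. Only Trim30a among them passed, and Trim12c, Trim5 and Trim34a turned sign in another setting.
Trim30a (chr7:104465210-104465239, minus strand): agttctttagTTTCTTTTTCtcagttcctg
Trim30d (chr7:104507871-104507900, minus strand): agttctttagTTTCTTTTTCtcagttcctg
Trim12a (chr7:104315466-104315495, minus strand): agagttgtggTTTCTGTTTCatttccagag
Trim5 (chr7:104288136-104288165, minus strand): agagttgtggTTTCTGTTTCatttccagag
Trim12c (chr7:104353359-104353388, minus strand): agagttgtggTTTCTGTTTCatttccagct
Trim34a (chr7:104244457-104244486, plus strand): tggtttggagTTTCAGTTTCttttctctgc
Trim21 (chr7:102565450-102565479, minus strand): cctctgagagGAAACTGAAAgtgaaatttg
Trim26 (chr17:36836976-36837005, plus strand): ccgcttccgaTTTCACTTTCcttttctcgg

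The sequences are those of RefSeq on GRCm38.p6. Trim30a and Trim30d carry the same 30 bases, and so do Trim12a and Trim5. In Trim30a the match begins 36 bases before the start, and a second annotated start of the gene holds it as well. Trim21 and Trim26 each hold a second match that overlaps the one shown. Among the 9 tested members with the motif, 1 passed the test (Trim30a), where 11.6% of all genes passed. Of the 9, 4 had log2 changes above 0 and 5 below 0. A match is a description of letters and not a shown binding site.

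The whole 250 bases before the start are given for the 3 genes that passed and are in the promoter table, since they differ in composition. In Trim30a the capitals mark the motif, and in Trim24 and Trim66 they mark each CG.
Trim30a (chr7:104465194-104465443, minus strand): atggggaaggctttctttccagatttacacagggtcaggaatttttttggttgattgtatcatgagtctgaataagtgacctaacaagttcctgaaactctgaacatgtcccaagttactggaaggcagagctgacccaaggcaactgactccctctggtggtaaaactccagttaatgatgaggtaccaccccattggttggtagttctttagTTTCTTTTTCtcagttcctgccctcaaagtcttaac
Trim24 (chr6:37870561-37870810, plus strand): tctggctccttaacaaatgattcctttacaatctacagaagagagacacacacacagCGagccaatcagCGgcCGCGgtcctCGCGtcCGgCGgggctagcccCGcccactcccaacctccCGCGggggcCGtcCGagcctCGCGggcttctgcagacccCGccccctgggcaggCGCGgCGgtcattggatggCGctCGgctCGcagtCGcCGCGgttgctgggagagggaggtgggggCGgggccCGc
Trim66 (chr7:109508135-109508384, minus strand): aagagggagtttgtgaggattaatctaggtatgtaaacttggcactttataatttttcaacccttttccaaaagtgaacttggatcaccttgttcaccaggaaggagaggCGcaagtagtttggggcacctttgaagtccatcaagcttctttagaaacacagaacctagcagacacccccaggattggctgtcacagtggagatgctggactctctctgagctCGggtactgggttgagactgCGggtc

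The Trim24 stretch holds 27 CG pairs, that of Trim66 holds 3 and that of Trim30a holds 0. The ratio of observed to expected CG was 0.892 for Trim24 and 0.219 for Trim66. Over the 300 bases of the table, 86.3% of genes had a lower ratio than Trim24 and 34.8% a lower one than Trim66. The 2 genes that rose therefore did not share this feature.

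Tested genes beside the called members were named for their position, and 11.6% of all genes tested passed. Coro2a, the neighbour of Trim14, had a log2 change of -0.59 (limma adjusted p = 0.0438), and Nans on the other side had -0.18 (adjusted p = 0.106). Beyond them, Tbc1d2 next to Coro2a had -0.24 (adjusted p = 0.425) and Anp32b next to Nans had 0.04 (adjusted p = 0.827). Rpl27a, beside Trim66, had 0.35 (adjusted p = 0.0479), while Lmo1 on the other side had -0.33 (adjusted p = 0.124) and Denn2b, beyond Rpl27a, had -0.67 (adjusted p = 0.448). Of the nearest tested genes of Trim24, Akr1d1 had -0.14 and Creb3l2 -0.21, neither past the threshold. Trim24 lies on chromosome 6, as Ezh2 does, with 239 annotated genes between them, and 13.6% of 706 tested genes on that chromosome passed.

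The PRY-SPRY class as a whole, the largest with 26 tested members, had 0 higher and 2 lower, both described above. Of all genes tested, 5.55% were higher and 6.01% lower. An unadjusted limma p under 0.05 was found for 24.9% of all genes and for 8 members of this class. Its log2 changes ran from -1.12 to 0.78, with 10 above and 16 below 0. Trim27, a ligase of the nucleus and endosomes, read 5898 and 6266 in Ezh2 KO and 6540 and 6484 in WT, lower on both Ezh2 KO arrays but with a log2 change of only -0.10 (SE 0.06, limma adjusted p = 0.373). Its other tested probe sets ran from -0.04 to 0.19. Trim35, a ligase of macrophages and other blood cells, read 1777 and 1669 in Ezh2 KO and 1858 and 1794 in WT (log2 change -0.08, adjusted p = 0.549).

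The extremes of the PRY-SPRY class were dim. Trim17 read 9.65 and 9.48 in Ezh2 KO and 28.1 and 54.3 in WT, so its log2 change of -1.12 (SE 0.49, limma adjusted p = 0.188) rested on signals near the filter intensity of 19.96. A second probe set of Trim17, below the filter, went the other way, with 19.0 and 20.6 in Ezh2 KO and 3.47 and 5.13 in WT. Trim62, at 32.2 and 57.6 in Ezh2 KO and 24.2 and 13.7 in WT, had 0.78 (SE 0.45, adjusted p = 0.329). Trim10, which is known from red cell development, stood at 36.1 and 29.6 in Ezh2 KO and 38.2 and 33.3 in WT, with overlapping groups. Trim80, which the class lists do not hold, read 50.9 and 25.5 in Ezh2 KO and 8.65 and 8.50 in WT (log2 change 1.10, SE 0.50, adjusted p = 0.211). Trim60 read 22.1 and 22.7 in Ezh2 KO and 64.5 and 7.86 in WT, so replicates of 1 group could differ widely at this end of the scale. These 5 genes were picked after their values were seen.

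Members with NHL repeats, a class with RNA-binding and cytoplasmic ligases, had 3 tested genes and 0 that passed in limma, with 0 at an unadjusted p under 0.05. Over all genes, 11.6% passed and 24.9% had an unadjusted p under 0.05, the shares to set beside this class and those that follow. Trim32, whose human gene is mutated in a limb-girdle muscular dystrophy, read 223 and 166 in Ezh2 KO and 177 and 159 in WT (log2 change 0.18, limma adjusted p = 0.652). Trim3 read 40.5 and 80.7 in Ezh2 KO and 49.5 and 52.5 in WT, and Trim2 read 21.3 and 21.1 in Ezh2 KO and 46.3 and 23.0 in WT. The stem cell regulator Trim71, the fourth of the class, was below the filter.

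Members with a COS box, which bind microtubules, had 3 tested genes and 0 that passed in limma, also 0 at an unadjusted p under 0.05. Trim46, which organises microtubules in the axon of neurons, read 210 and 215 in Ezh2 KO and 150 and 169 in WT, higher on both Ezh2 KO arrays but the log2 change of 0.38 (SE 0.18) did not pass (limma adjusted p = 0.227). Trim9, known from neurons, had 0.29 (adjusted p = 0.609) and Trim36 had -0.30 (adjusted p = 0.633), both with overlapping groups. Muscle members were not seen: Trim54, Trim63 and Trim72, which act in striated muscle, did not exceed 12.9 on any array.

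Members with other C-terminal domains had 5 tested genes and 0 that passed in limma, 0 of them at an unadjusted p under 0.05, with log2 changes from -0.19 to 0.03. Trim59, a membrane-anchored ligase, read 3181 and 3899 in Ezh2 KO and 3371 and 3600 in WT, with overlapping groups (log2 change 0.02, SE 0.09). Trim37, a ligase that limits centrosome assembly, read 1615 and 1666 in Ezh2 KO and 1752 and 1776 in WT, slightly lower on both Ezh2 KO arrays (log2 change -0.10, SE 0.07, limma adjusted p = 0.422). Trim45 read 975 and 906 in Ezh2 KO and 1036 and 1121 in WT (-0.19, adjusted p = 0.211). Of the members with no assigned C-terminal domain 4 were tested and 0 passed in limma, with 1 at an unadjusted p under 0.05. Trim44 read 1810 and 1887 in Ezh2 KO and 1526 and 1704 in WT (log2 change 0.19, SE 0.08, adjusted p = 0.161), and Trim8, a regulator of cytokine signalling, read 379 and 359 in Ezh2 KO and 345 and 384 in WT (0.02).

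**Figure D4:**
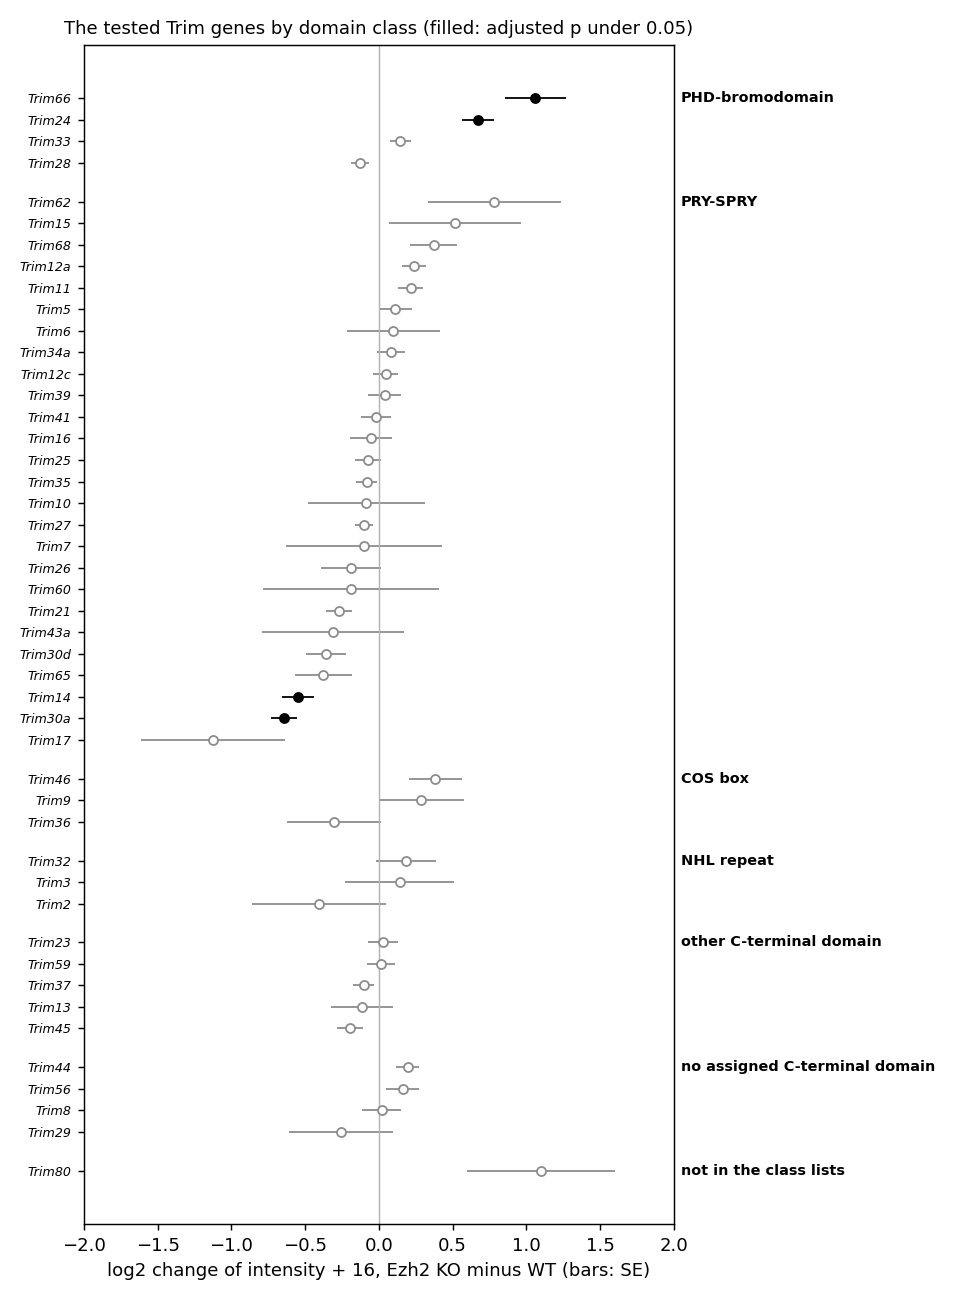
Log2 change (Ezh2 KO minus WT, of intensity plus 16, with SE) of the 46 tested Trim genes, ordered by class and by change within it. Filled points passed at an adjusted p under 0.05: Trim66 and Trim24 at the right of the PHD-bromodomain class, and Trim14 and Trim30a at the left of the PRY-SPRY class.

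The 12 genes not tested were Trim31, Trim40, Trim42, Trim47, Trim54, Trim61, Trim63, Trim67, Trim69, Trim71, Trim72 and Trim75. Their brightest probe sets reached at most 39.7 intensity units on any array. Detection calls were not used here, so such values cannot be told from background. Several of these genes are known mainly from testis, muscle, brain, gut or the early embryo.

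Tested alone, 83 of the 111 probe sets exceeded the filter and 4 passed, the brightest of Trim30a, Trim24, Trim66 and Trim14. This was 4.82%, against 7.92% of 25576 probe sets, and without WT replicate 1 it was 2 probe sets. The 28 others lay below the filter. Of 24 tested genes with several tested probe sets, 14 had changes of one sign in all of them. The number of Trim genes whose probe sets passed in opposite directions was 0. The widest gaps were in Trim26, between -0.19 and 0.63, and in Trim14, between -0.55 and 0.26.

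**Figure D5:**
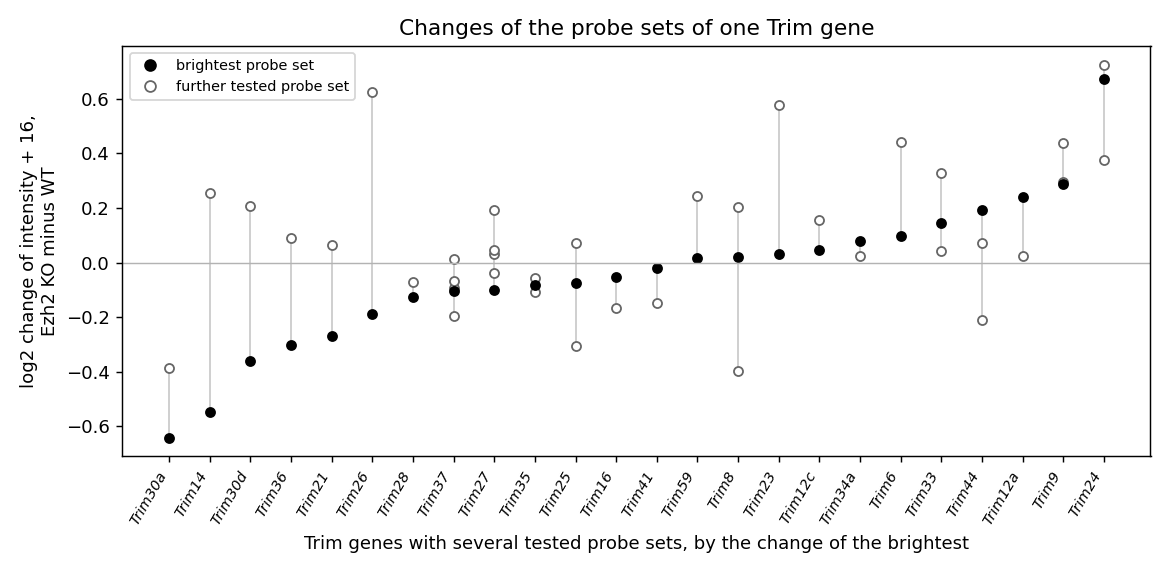
Log2 change (Ezh2 KO minus WT) of each tested probe set for the 24 Trim genes with several, ordered by the change of the brightest (filled), with further probe sets open. The probe sets of Trim24 all lie above 0 and those of Trim30a below 0, while those of Trim14 and Trim26 lie on both sides.

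Genes that work with the family were taken from 4 further lists. Over all genes tested, 11.6% passed in limma and 24.9% had an unadjusted p under 0.05. In lists this short, a count of 0 does not show that the genes were unaffected. TRIM genes under other symbols had 6 tested and 0 that passed in limma, with 1 at an unadjusted p under 0.05. The pyrin gene Mefv had a log2 change of 0.14 (limma adjusted p = 0.275). Mid1, a microtubule-bound ligase named after its values were seen, read 68.3 and 47.5 in Ezh2 KO and 113 and 132 in WT. It stood close to the threshold (-0.92, SE 0.28, limma adjusted p = 0.0663). The list of TRIM genes under other symbols had 1 call after quantile normalization, after median centring and with the replicate block. The partners of Trim28 in heterochromatin had 13 tested and 0 that passed in limma (1 at an unadjusted p under 0.05). This list had 1 call after quantile normalization, after median centring, with the filter at the 50th percentile and with the replicate block. Zfp809, named after its values were seen, read 396 and 493 in Ezh2 KO and 616 and 587 in WT. It stood close to the threshold (-0.43, SE 0.13, limma adjusted p = 0.0598). Uhrf1, a reader of hemimethylated DNA, had 0.02 (adjusted p = 0.865).

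Ubiquitin-activating and ubiquitin-conjugating enzymes had 14 tested, 1 higher and 0 lower, where 11.6% of all genes passed. At an unadjusted limma p under 0.05 the list had 3, where all genes gave 24.9%. Its log2 changes were above 0 for 4 and below 0 for 10. Ube2l6 (-0.95, limma adjusted p = 0.0822) and Ube2n (-0.38, adjusted p = 0.0752), named after their values were seen, did not pass. The gene that rose was Ube2e3, a conjugating enzyme, with 4791 and 4611 in Ezh2 KO and 2796 and 2593 in WT (log2 change 0.80, SE 0.07, limma adjusted p = 8.35e-05). Its further probe set had 0.67 without passing (adjusted p = 0.169). The list had 2 calls without WT replicate 1, without Ezh2 KO replicate 1 and without Ezh2 KO replicate 2, and 3 calls after median centring and with the replicate block.

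Cytosolic RNA and DNA sensing, the setting of Trim14, Trim25 and Trim56, had 13 tested, 2 higher and 2 lower, where 11.6% of all genes passed in either direction. Zbp1, a sensor of left-handed nucleic acids, read 79.0 and 52.5 in Ezh2 KO and 268 and 194 in WT, a log2 change of -1.60 with an SE of 0.26 (limma adjusted p = 0.00408). It missed the threshold without WT replicate 1 (-1.38, adjusted p = 0.0528). Dhx58, a regulator of RIG-I, read 185 and 130.5 in Ezh2 KO and 287 and 249 in WT (-0.72, adjusted p = 0.0480), and lost its call without Ezh2 KO replicate 2 or either WT replicate, where the change ran from -0.82 to -0.50. The call was also lost with no filter (adjusted p = 0.111), with a pseudocount of 1 (adjusted p = 0.0507), with a single prior variance (adjusted p = 0.221) and when its probe sets were averaged (-0.45, adjusted p = 0.322). The kinase gene Ikbke read 1096 and 1112 in Ezh2 KO and 788 and 776 in WT (0.49, adjusted p = 0.00512). The other gene that rose was Tank, an adaptor of that kinase, at 0.35 (adjusted p = 0.00704), named after its values were seen. The count of 4 was 1 without WT replicate 1.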

How the data were processed

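RNA of 4 samples, 2 Ezh2 KO and 2 WT, was measured on 1-colour Affymetrix arrays. The authors deposited linear probe set intensity values, and the submitters' processing notes name Affymetrix Expression Console, whose version and summary algorithm are not given in the sources used here. From the values, each array's mean, trimmed by 2% at each end, was 500, so differences in total mRNA per cell are removed. Groups and replicate numbers came from the titles.

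Of 45101 probe sets, 64 controls were left out and 34945 had 1 symbol. All 58 Trim genes matched RefSeq genes (GRCm38.p6) by identifier. For each gene the probe set with the highest mean log2 value was used, if above the 30th percentile (19.96). Values were tested as log2(intensity + 16), which understates changes of dim genes, by limma 3.58.1 (lmFit, eBayes; R 4.3.3) with a prior variance following intensity, and Benjamini-Hochberg adjustment over 13916 genes, or over 25576 probe sets. Each gene had 2 residual degrees of freedom, 9.56 with the prior. The number of arrays limits precision. The fit was tested on simulated data.

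Members, lists and tests were chosen with earlier results of these data known. Named were Ezh2, called members, the interferon and antiviral members, the 3 brightest of each class, and of each further list up to 3 called genes or the brightest. Alternatives changed normalization, filter, pseudocount, prior, probe set rule, replicate block and arrays. Figures were drawn in matplotlib 3.10.9 (Python 3.11.15).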

Additional observations from a re-analysis of the deposited data

Results flagged for a closer look

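Probe sets annotated to more than 1 gene were not members and entered no test. Of those that name a Trim gene, 3 read higher on both Ezh2 KO arrays than on both WT arrays. The probe set of Trim30d and Trim30a described above went the other way, with averages of 209 in Ezh2 KO and 288 in WT. Among the genes tested, the groups did not overlap for 52.5%, so separate groups alone were common. A probe set of Trim34b and Trim34a averaged 320 ± 9.99 intensity units in Ezh2 KO and 229 ± 12.3 in WT (SD, n = 2 arrays, as below), while a second one for the same pair of genes averaged 65.2 ± 5.05 in Ezh2 KO and 81.3 ± 19.4 in WT. A probe set of H2aw and Trim17 averaged 633 ± 95.5 in Ezh2 KO and 441 ± 82.8 in WT. A probe set of Gm38525 and Trim30b averaged 26.6 ± 10.1 in Ezh2 KO and 5.69 ± 4.66 in WT, close to the filter intensity. Which gene gives the signal cannot be told from such a probe set.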

How the results depend on the processing

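The 4 called Trim genes kept their direction in all 14 alternatives of normalization, filter, pseudocount, prior, block, probe set rule and arrays. Trim14 passed in 11 of them, Trim24 in 12, and Trim30a and Trim66 in 13 each. With a single prior variance 0 Trim genes, 0 Trim probe sets and 0 of all genes passed in limma (10, 14 and 2595 at an unadjusted p under 0.05), and adjusted p-values of the 4 genes ran from 0.0879 for Trim66 to 0.183 for Trim14. The mean of all probe sets of a gene gave 2 Trim genes (Trim30a and Trim66), with 958 calls over all genes. Leaving out 1 array gave 3 to 5 Trim genes, 2 to 4 Trim probe sets and a median from -0.067 to 0.026. Over all genes, 831 passed without WT replicate 1 and 1061 without WT replicate 2, where all arrays gave 1608. Median centring moved the Trim median to -0.099 and that of all genes to -0.090. The replicate block gave 6 Trim genes, adding Trim12a (adjusted p = 0.0386) and Trim21 (adjusted p = 0.0250), 6 probe sets and 2719 of all genes. With 2 pairs and a correlation of 0.0409 between deviations of the same number, the replicate numbers were not taken as pairing.

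Of 348 values of 25 named uncalled Trim genes under these settings, 4 passed and 22 turned sign. Signs turned as follows, all on the log2 scale and none past the threshold. Quantile normalization gave Trim8 -0.029. Median centring gave Trim12c -0.050, Trim34a -0.016, Trim59 -0.081, Trim8 -0.078 and Uhrf1 -0.073. Means over probe sets gave Trim2 0.056, Trim26 0.22, Trim27 0.073 and Trim8 -0.057. Further probe sets read 0.053 for Dhx58, 0.26 for Trim14, 0.066 for Trim21, 0.073 for Trim25, 0.63 for Trim26, 0.032, 0.047 and 0.19 for Trim27, 0.21 for Trim30d, 0.091 for Trim36, 0.013 for Trim37, -0.21 for Trim44 and -0.40 for Trim8. Without 1 array the changes ran from -0.025 to 0.12 for Trim12c, -0.16 to 0.011 for Trim25, -0.25 to 0.53 for Trim3, -0.011 to 0.38 for Trim32, -0.016 to 0.24 for Trim5, -0.012 to 0.34 for Trim56, -0.13 to 0.16 for Trim59, -0.17 to 0.36 for Trim6, -0.055 to 0.093 for Trim8 and -0.019 to 0.067 for Uhrf1. Of these ranges, the upper end for Trim56 passed. The causes were not tested. Signal near the filter intensity limits the dim members most.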
